A study of Mus musculus with 21 samples.

Results

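The genes described here encode the factors that start and extend protein synthesis on cytosolic ribosomes, measured in mouse liver. Members were chosen by name: every non-control probe whose gene name on the array begins with Eif1 to Eif6, Eef1 or Eef2, except the eIF2 kinases. That gave 62 of the 34797 gene names on the array. The brightest probe stood for each gene, and 59 members passed the filter on dim probes and were among the 19648 genes tested. Eef1a2 and Eif2c3 were well above background on 0 of 21 arrays, and the 2 probes of Eif4e1b on 0 and 1, so these 3 were not analysed further. RefSeq accessions were matched for 58 of the 59, and the genes named Eif2c1, Eif2c2 and Eif2c4 on the array are now Ago1, Ago2 and Ago4. They encode Argonaute proteins of the small RNA pathway, not initiation factors, so the label did not hold for them and they were kept apart.

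Initiation begins when eIF2, bound to GTP, brings the initiator tRNA to the small ribosomal subunit, where eIF1, eIF1A, eIF3 and eIF5 gather and the cap-binding complex eIF4F loads the mRNA. eIF5B then joins the large subunit, after which eEF1A delivers each aminoacyl-tRNA and eEF2 moves the ribosome along the message. In liver this machinery also serves the making of plasma proteins, and its supply and activity are known to respond to nutrients through the kinase mTOR, the eIF4E-binding proteins and the phosphorylation of eIF2.

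Adult male C57BL/6J mice, an inbred strain, all ate a normal-fat diet for 3 weeks and then a high-fat diet for 12 weeks. The HF group (11 livers) had the high-fat diet alone, and the HF-Q group (10 livers) had it with 0.33% (w/w) quercetin, a plant flavonoid. The study held 24 mice, and the authors excluded 3 arrays. No group analysed here stayed on the normal-fat diet, and food was withheld from every mouse for 2 to 4 h before sampling. Each liver was labelled with Cy5 and hybridised to its own array against a Cy3-labelled pool of all samples, so values are log2 of liver signal over pool signal, and dyes were not swapped.

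The share of probes well above background in Cy5 was 44.0% to 51.3% per array, and the median Cy5 signal was 64.5 to 74.8 over a local background of 33 to 36. The arrays lay on 3 slides with both groups on each (3 HF and 4 HF-Q, 4 and 2, 4 and 4), and the number of arrays limits the precision. All 6 hepatocyte markers were above background, and the summed signal of the 4 measured on all arrays was 453618 to 554711 in HF and 460167 to 545643 in HF-Q livers. The skeletal muscle markers Acta1, Ckm and Myh4 and the fat cell marker Adipoq were above background on 0 arrays. The other fat cell marker, Plin1, was above background on some arrays but fewer than 10. The summed signal of 6 pancreatic acinar markers was 19589 in HF replicate 11, 11078 in HF replicate 5 and 4055 or less in all other livers. Of these acinar markers 5 were tested, and all 5 had a lower mean in HF-Q (median log2 difference -0.42), none with an unadjusted p under 0.05. The 3 erythroid markers had a lower mean in HF-Q (median -0.22, 1 with an unadjusted p under 0.05). The part of either cell type in the results on single genes was not tested, beyond the fit without HF replicates 5 and 11 given below.

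The sequences of the results come from RefSeq and from the array. Many mRNAs of the translation machinery begin with a C followed by a run of pyrimidines, the 5′ terminal oligopyrimidine (TOP) motif, through which mTOR and the RNA-binding protein Larp1 control their translation. The windows are at most 30 bases around such a run, close to the annotated start in build GRCm38.p6, shown 5′ to 3′ on the gene's strand, for 5 members listed as TOP mRNAs and for the X- and Y-linked copies of the eIF2 gamma subunit. Capitals mark the longest pyrimidine run that begins with C between 20 bases before and 50 after the annotated start.
Eef1a1 (chr9:78481710-78481739, minus): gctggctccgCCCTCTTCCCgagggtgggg
Eef1b2 (chr1:63176853-63176880, plus): cgtccgagcgCTTTCgttcaactccggc
Eef2 (chr10:81176636-81176665, plus): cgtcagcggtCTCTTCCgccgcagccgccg
Eif3f (chr7:108934401-108934430, plus): ctgttctaggCTCTCTCTCTTTCTCggcaa
Eif4b (chr15:102073773-102073802, plus): cgccgcgccaCCCCCTCgcgctgctttacg
Eif2s3x (chrX:94212633-94212662, minus): cgagcattttCCTTTTCTCTCCgagcaaga
Eif2s3y (chrY:1010586-1010615, plus): gccacagccaCTTCCTTCTTTCgtgagcaa

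A C-led pyrimidine run of 7 or more bases in that span stood in 19 of the 46 members with a promoter sequence (41.3%). It stood in 32.0% of all 27025 genes with a promoter, and in 28.7% of the 32851 promoters counted singly. Among the 5 TOP-listed members with a sequence, 4 had one, and Eef1b2, with a longest run of 5, did not. The annotated start need not be the start used in liver, so these are descriptions of the windows and not TOP sites.

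The array itself read the members through 60-base probes. Those printed are for genes whose values are given in full below, on the strand of the mRNA with positions on NCBI37 (mm9) from the array files; the Eif3i and Eif2s3x probes span 1520 and 5409 bases of genome and so cross an intron. The Eif5 probe printed is the dimmer of its 2 kept probes.
Eef1b2 (chr1:63225413-63225472, plus): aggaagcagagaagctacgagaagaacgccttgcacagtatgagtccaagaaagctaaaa
Eif3i (chr4:129272626-129274145, minus): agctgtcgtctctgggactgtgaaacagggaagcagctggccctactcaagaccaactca
Eif2s3x (chrX:91436226-91441634, minus): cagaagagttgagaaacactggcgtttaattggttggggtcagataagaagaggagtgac
Eif5 (chr12:112778375-112778434, plus): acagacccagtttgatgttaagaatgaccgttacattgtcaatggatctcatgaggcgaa

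Setting HF-Q beside HF addresses how quercetin in a high-fat diet goes with transcript levels in the liver. No translation factor gene passed the test: 0 of 59 had an adjusted p under 0.05 in limma's moderated test with Benjamini-Hochberg adjustment over all genes (lowest adjusted p = 0.682, for Eef1b2). Over all genes the share called was 0% (lowest adjusted p = 0.380). The members divided almost evenly, 30 with a higher and 29 with a lower mean in HF-Q, with a median log2 difference of 0.0019. Over all genes 46.9% had a higher mean and the median was -0.0044. In whole liver, fewer cells of a type and less RNA per cell cannot be told apart.

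The differences were bounded narrowly. For 56 of the 59 members the 95% interval of the difference lay within 1.2-fold either way, against 89.1% of all genes, and the exceptions were Eif1a, Eif4ebp3 and Eif5b. Their intervals had a median half-width of 0.093 on the log2 scale (0.059 to 0.24), compared with 0.11 over all genes. When 1 array was left out, the difference of 18 of the 29 genes named by rule moved by over 1.5 times or turned. Values of HF and HF-Q livers overlapped for every one of the 59 members, and over all genes the groups did not overlap for 0.00509%.

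**Figure D1:**
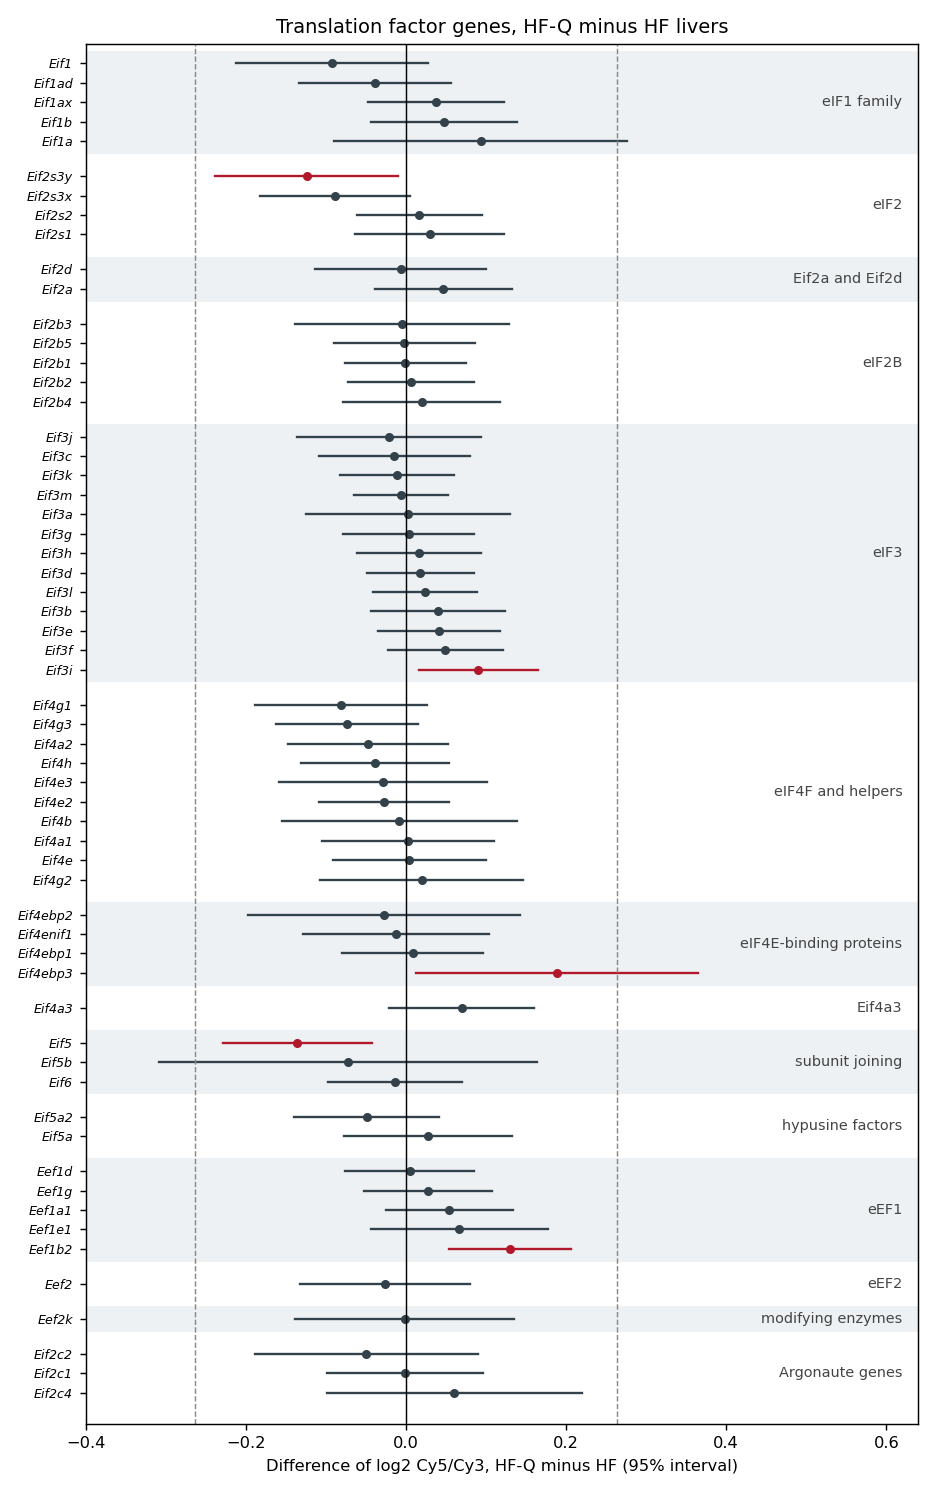
Difference of the log2 ratio (HF-Q minus HF) of each of the 59 members, by factor group; points are limma estimates from 11 HF and 10 HF-Q livers, lines are 95% intervals, red marks an unadjusted p under 0.05, and dashed lines mark a 1.2-fold difference either way. The intervals of Eif1a, Eif4ebp3 and Eif5b cross a dashed line, and those of the other 56 do not.

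Before adjustment, 5 members had a p under 0.05 in limma (3 higher and 2 lower in HF-Q), which is 5 of 59 beside 5.93% of all genes (3.02% higher and 2.91% lower). They were Eef1b2, Eif3i and Eif4ebp3 on the higher side and Eif5 and Eif2s3y on the lower. None of these differences passed the adjusted threshold, so they are given as values.

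**Figure D2:**
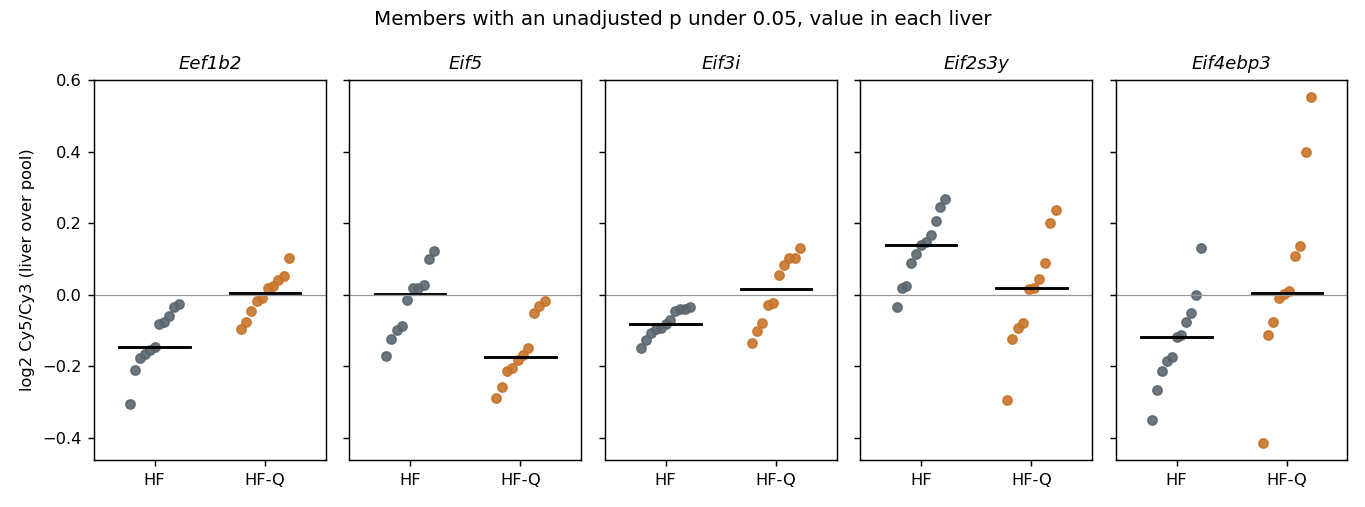
Log2 ratio to the pool of the 5 members with an unadjusted p under 0.05, 1 point per liver (11 HF, for Eif5 10, and 10 HF-Q), with the group median as a bar. The groups overlap in every panel, and all 10 HF-Q livers lie above the HF median for Eef1b2 and below it for Eif5.

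Among the factors that start initiation, the eIF2 complex had 2 members with a higher and 2 with a lower mean in HF-Q (median difference -0.036). With arrays centred on their median the median difference was 0.011, and that of all genes 0.024. The gamma subunit of eIF2, which holds GTP and the initiator tRNA, is encoded by Eif2s3x on chromosome X and by the near-identical Eif2s3y on chromosome Y. Eif2s3y ranged from -0.033 to 0.27 in HF (median 0.14) and from -0.29 to 0.24 in HF-Q (median 0.019). The HF-Q livers reached lower, with 4 of 10 below every HF liver and 2 above the HF median, and the rest lay inside the HF range. The difference was -0.12 ± 0.055 (SE; unadjusted p = 0.0349, adjusted p = 0.817 in limma). It was -0.23 within slide 1, -0.060 within slide 2 and -0.067 within slide 3, and -0.12 with the slide as a block. Without HF-Q replicate 9, the lowest liver, it was -0.091. Over the fits that left out 1 array, the highest unadjusted p of Eif2s3y in limma was 0.0823.

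Eif2s3x lay between -0.13 and 0.15 in HF (median 0.015) and between -0.23 and 0.11 in HF-Q (median -0.089). Here too 4 HF-Q livers lay below all HF livers, and the difference was -0.089 ± 0.045 (unadjusted p = 0.0608). Its other kept probe had a mean difference of the other sign, 0.048 ± 0.053, and within slide 2 the printed probe gave 0.041. How far the probes of the X- and Y-linked copies cross-hybridise was not tested.

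Eif2s1, the alpha subunit whose phosphorylation slows initiation, had a difference of 0.030 ± 0.045, from -0.14 ± 0.057 (SD, n = 11) in HF to -0.11 ± 0.13 (n = 10) in HF-Q. HF-Q replicate 10 stood at 0.22, while the other HF-Q livers lay between -0.23 and -0.078, and without it the difference was -0.0067. For its other kept probe the difference was -0.022. The array measures transcripts and says nothing of the phosphorylation.

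The 5 subunits of eIF2B, which recharges eIF2 with GTP, had differences of -0.0052 to 0.019 (2 higher, 3 lower, median -0.00081), the narrowest range of the groups with several genes. Eif2b4, its delta subunit, had the largest, 0.019 ± 0.048, and Eif2b2, the beta subunit, differed by 0.0066 ± 0.038. Eif2a and Eif2d encode single-chain factors that can bring initiator tRNA without eIF2. Eif2a had a mean of 0.054 in HF and 0.10 in HF-Q (difference 0.047 ± 0.041), and Eif2d one of 0.0097 and 0.0028 (difference -0.0069 ± 0.051).

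The eIF1 family, grouped by gene name, had 3 members with a higher and 2 with a lower mean (median 0.038). The factors eIF1 and eIF1A guard the choice of start codon. That role is not claimed here for Eif1ad (difference -0.039, named for this reason). Eif1 averaged -0.015 ± 0.16 (SD) in HF and -0.11 ± 0.10 in HF-Q, a difference of -0.093 ± 0.058 (SE; unadjusted p = 0.125), and 9 of 10 HF-Q livers lay below the HF median. It was -0.058 without HF replicate 11, and -0.034 without HF replicates 5 and 11. A dimmer kept probe of Eif1 gave 0.0050, so the probes of this gene did not show the same difference. Its copy Eif1b differed by 0.047 ± 0.044, and by 0.020 without HF-Q replicate 6.

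Eif1a was among the members that varied most from liver to liver, from -0.39 to 0.35 in HF (median -0.29) and from -0.42 to 0.14 in HF-Q (median 0.0016). The highest value belonged to HF replicate 1, and 8 of 10 HF-Q livers lay above the HF median. The difference of 0.093 ± 0.088 was within this spread (unadjusted p = 0.302), and it was 0.40 within slide 1, -0.023 within slide 2 and -0.036 within slide 3.

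eIF3, the scaffold that keeps the small subunit open and binds most other factors, was the largest group. All 13 of its genes were kept, 9 with a higher and 4 with a lower mean in HF-Q, with differences of -0.021 to 0.090 and a median of 0.016 (-0.0032 with Cy5 alone and 0.0035 without HF replicate 7). It also had the lowest median residual SD of the factor groups, 0.075 compared with 0.13 over all genes, and 11 of its 13 genes lay below the median SD of all genes. Among all members 43 of 59 did, and the part of probe brightness in this was not tested. Eif3m, named for the lowest SD of any member after its values were seen, had one of 0.046.

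Eif3i, a beta-propeller subunit of eIF3, lay between -0.15 and -0.033 in all HF livers (median -0.081) and between -0.14 and 0.13 in HF-Q livers (median 0.016). The HF livers were tightly grouped, whereas 7 of 10 HF-Q livers stood above the highest of them and the other 3 lay inside the HF range. The difference was 0.090 ± 0.036 (95% interval 0.016 to 0.16; unadjusted p = 0.0189, adjusted p = 0.790 in limma). It was 0.080, 0.090 and 0.093 in slides 1, 2 and 3 fitted alone and 0.088 with slide as a block. Eif3f, a TOP-listed subunit, had the next lowest p of the group (0.173), with a mean of 0.052 ± 0.075 (SD) in HF and 0.10 ± 0.060 in HF-Q.

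The eIF4F genes and their helpers, which bind the cap and unwind the leader of the mRNA, had 3 higher and 7 lower means in HF-Q (median -0.028), and 0 of 10 had an unadjusted p under 0.05. With arrays centred on their median in place of loess, the median of this group was 0.023 and that of all genes 0.024. The sign of the group median thus depended on the normalization. With loess the median of all genes was -0.0044, so it moved less than that of this group. The scaffolds Eif4g1 and Eif4g3 had the largest differences, -0.081 ± 0.052 (10 livers per group, HF having 1 flagged spot) and -0.074 ± 0.043, with unadjusted p of 0.132 and 0.0987. Within slide 2 the signs of both turned, to 0.012 and 0.10. For the cap-binding protein itself, Eif4e, the livers ranged from 0.056 to 0.49 in HF and from 0.092 to 0.35 in HF-Q. The group means were 0.24 in both, and the difference of 0.0040 ± 0.046 had a 95% interval of -0.092 to 0.10.

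The eIF4E-binding proteins keep Eif4e's product from the scaffold until mTOR phosphorylates them. The group, set by gene name, also holds Eif4enif1 (difference -0.013, named for this reason), for which that role is not claimed. The group had 2 higher and 2 lower means in HF-Q (median -0.0023). Eif4ebp3 ranged from -0.35 to 0.13 in HF (median -0.12) and from -0.41 to 0.55 in HF-Q (median 0.0064). The HF-Q livers were the more spread, holding both the highest and the lowest values, and 9 of 10 lay above the HF median. The difference was 0.19 ± 0.085, or 1.14-fold (95% interval 1.01 to 1.29; unadjusted p = 0.0373, adjusted p = 0.818 in limma). It was 0.19, 0.16 and 0.17 in slides 1, 2 and 3 and 0.17 with slide as a block. Without HF-Q replicate 8, the highest liver, it was 0.13 (unadjusted p = 0.0877).

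Eif4ebp1, the best-known of these proteins, differed by 0.0082 ± 0.043 and Eif4ebp2 by -0.027 ± 0.082. In Eif4ebp2 a liver of each group stood far below the rest, HF replicate 1 at -0.34 and HF-Q replicate 10 at -0.50. Without HF replicate 1 its difference was -0.069, and without HF-Q replicate 10 it was 0.035. Eif4a3, a relative of the eIF4F helicase that marks exon junctions, differed by 0.069 ± 0.044 (unadjusted p = 0.125).

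**Figure D3:**
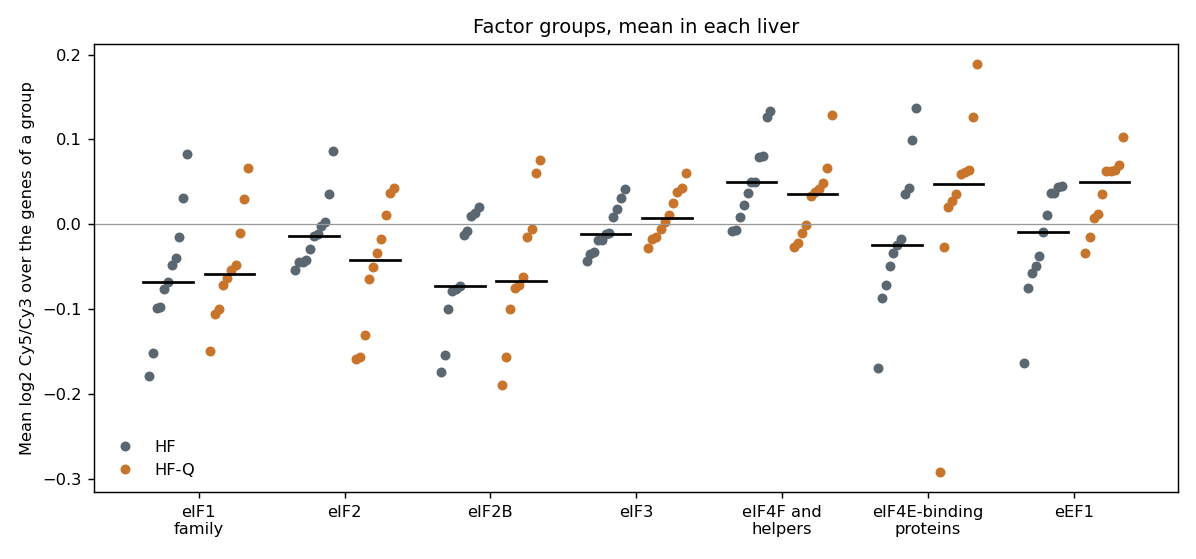
Mean log2 ratio to the pool over the genes of a factor group in each liver (11 HF, 10 HF-Q; genes with a value on all arrays), with the group median as a bar, for the 7 groups of 4 or more genes. HF and HF-Q livers overlap in every group, and HF-Q replicate 10 lies lowest in the eIF4E-binding proteins, at -0.29.

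The genes that close initiation all had a lower mean in HF-Q (0 of 3 higher), although for Eif5b the pool signal was near background. Their median of -0.073 is the value of Eif5b itself. It was -0.015 without HF replicate 8, -0.12 without HF replicate 1, -0.13 with a normexp offset of 10 and -0.030 with the processed signals. Eif5 encodes the protein that makes eIF2 split its GTP once the start codon is found. It ranged from -0.17 to 0.12 in 10 HF livers (median 0.0032; the spot of HF replicate 1 was flagged and left out) and from -0.29 to -0.017 in HF-Q (median -0.17). All 10 HF-Q livers lay below the HF median and 5 of them below every HF liver, while the other 5 lay inside the HF range. The difference was -0.14 ± 0.045, or 0.910-fold (95% interval 0.853 to 0.971; unadjusted p = 0.00615, adjusted p = 0.738 in limma).

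The second kept probe of Eif5, printed above and measured on all arrays, ran from -0.12 to 0.19 in HF and from -0.26 to 0.033 in HF-Q. Its difference had the same sign, -0.094 ± 0.046 (unadjusted p = 0.0512 in a fit over all kept probes). For the brighter probe the differences within slides 1, 2 and 3 were -0.12, -0.19 and -0.093, and slide as a block gave -0.13. With arrays centred on their median in place of loess it was -0.069.

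Eif5b, the GTPase that joins the subunits, had ratios from 0.62 to 1.71 in HF and from 0.71 to 1.45 in HF-Q, a difference of -0.073 ± 0.11 (-0.17 with Cy5 alone). Its probe was well above background in Cy5 on 21 arrays and in Cy3 on 1. Every liver lay above the pool, which held all samples, so the ratio is not read as liver over pool. The reason was not tested. The difference and spread of Eif5b rest on a pool signal near background. Eif6, which keeps large subunits from joining early, differed by -0.014 ± 0.040 with its brightest probe. Eif6 is named after its values were seen because its probes were furthest apart: another kept probe gave -0.15 ± 0.063 (unadjusted p = 0.0241) and a further one gave 0.012 ± 0.048.

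The eEF1 complex carries aminoacyl-tRNA to the ribosome. In the eEF1 group, set by gene name, all 5 kept genes had a higher mean in HF-Q, with a median difference of 0.054. Eef1e1 (difference 0.067, named for this reason) is in the group by name only and encodes no subunit of the complex. Only Eef1b2 had an unadjusted p under 0.05 with its brightest probe, and the count of 5 is small. Another kept probe of Eef1g, named after its values were seen, gave 0.080 ± 0.038 (unadjusted p = 0.0479) and its brightest probe 0.027. Within slide 2 the median of the group was -0.0023. Eef1b2 encodes the exchange factor that reloads eEF1A with GTP. It lay between -0.31 and -0.024 in HF (median -0.15) and between -0.096 and 0.10 in HF-Q (median 0.0049).

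All 10 HF-Q livers exceeded the HF median for Eef1b2, 7 of them stood above every HF liver, and 3 lay inside the HF range. The difference was 0.13 ± 0.037, or 1.09-fold (95% interval 1.04 to 1.15; unadjusted p = 0.00172, adjusted p = 0.682 in limma), the lowest p among the members. It was 0.18, 0.12 and 0.12 within slides 1, 2 and 3, 0.14 with slide as a block and 0.12 without HF replicates 5 and 11. With the Cy5 signal alone in place of the ratio, it was 0.068 (unadjusted p = 0.166). The normalization of that signal still used the pool channel.

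Eef1a1, the carrier itself and one of the most abundant mRNAs of growing cells, ranged from 0.0026 to 0.29 in HF (median 0.17) and from 0.067 to 0.31 in HF-Q (median 0.26). The groups overlapped widely, with 7 of 10 HF-Q livers above the HF median, and the difference was 0.054 ± 0.038 (unadjusted p = 0.174). Its other kept probe gave 0.057 ± 0.039. Near-identical processed copies of this gene exist in the genome, and cross-hybridisation was not tested. Among the others of this group, given by their extremes, Eef1d had the smallest difference, 0.0047.

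Eef2, the translocase, had means of 0.078 ± 0.14 (SD) in HF and 0.051 ± 0.094 in HF-Q, a difference of -0.026 ± 0.051 (95% interval -0.13 to 0.080). Its direction turned in 5 of 16 other settings, and it was -0.0051 without HF replicate 11 and 0.011 without HF replicates 5 and 11. Its kinase Eef2k, which stops elongation by phosphorylating it, differed by -0.0017 ± 0.066. The hypusine factors Eif5a and Eif5a2, which help ribosomes past difficult peptide bonds, differed by 0.028 ± 0.051 and -0.049 ± 0.044. None of these 4 genes had an unadjusted p under 0.05, and each of their intervals lay within 1.2-fold.

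The 9 kept members listed as TOP mRNAs had 7 higher and 2 lower means in HF-Q with a median difference of 0.027. Among them are Eef1a1, Eef1b2, Eef1d and Eef1g of the eEF1 group, so both lists count these genes. The other 50 members had 23 higher and 27 lower means with a median of -0.0013. The mean over the TOP members ran from -0.074 to 0.067 in HF livers and from -0.016 to 0.085 in HF-Q livers, so the groups overlapped. The Argonaute genes had differences of -0.049 to 0.061: Eif2c2 (now Ago2) differed by -0.049 ± 0.067 and Eif2c4 (now Ago4) by 0.061 ± 0.077. Without HF-Q replicate 10 these were -0.0072 and 0.10, and Eif2c4 gave 0.028 without HF-Q replicate 2 and -0.0054 with its other kept probe. Without the Argonaute genes the median of the members was 0.0020.

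A gene could also be read by several probes. For 24 members with more than 1 kept probe, 31 other probes were compared with the brightest one, and the median gap between their differences was 0.036. The gap was under 0.1 for 29 and 0.1 or more for 2, one of Eif6 (0.14) and the one of Eif2s3x described above. The sign was the same for 23 of 31.

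**Figure D4:**
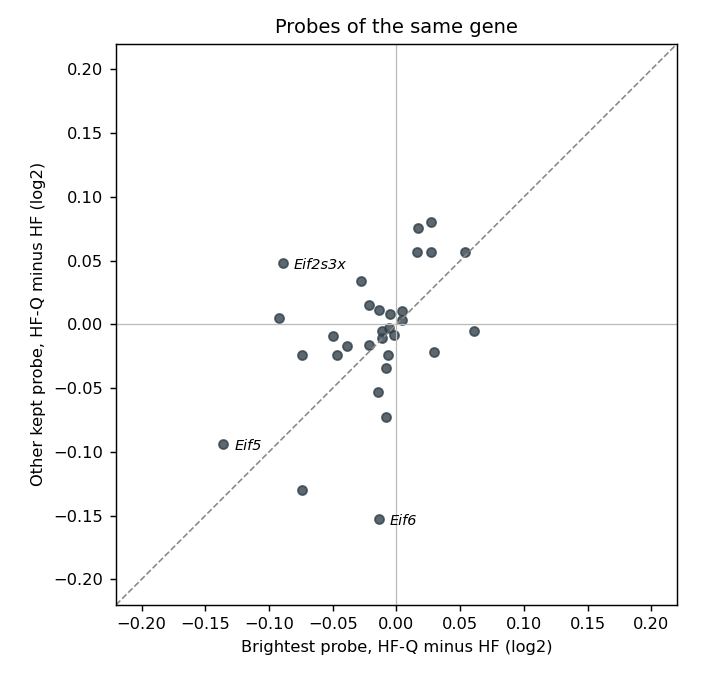
Difference (HF-Q minus HF, log2) of the brightest probe of a gene on the x axis and of each of its other kept probes on the y axis, for 31 probes of 24 genes; the dashed line marks equality. Most points lie near 0 on both axes, Eif5 lies low on both, and the labelled Eif2s3x and Eif6 probes lie 0.1 or more from the line.

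Other genes of the pathway, listed by role, had no clearer pattern. Of 39 genes, 38 were kept (Gspt2 was not), 19 with a higher and 19 with a lower mean in HF-Q, a median of -0.0023 and 0 with an unadjusted p under 0.05 in limma. The eIF2 kinases and phosphatase subunits had 5 higher and 1 lower (median 0.022), the regulators upstream of eIF4E 2 and 6 (median -0.031), and the poly(A)-binding genes 2 and 3 (median -0.0094). Both the hypusine enzymes and the selenocysteine factors had 1 and 1, the genes for termination, recycling and rescue 4 and 3 (median 0.018), and the mitochondrial factors 4 and 4 (median -0.012). The lowest p belonged to Abce1, the ribosome recycling ATPase, at 0.121 (difference 0.056 ± 0.035). The largest difference was that of Eif2ak3, the eIF2 kinase of the endoplasmic reticulum, 0.13 ± 0.22, whose 95% interval ran from -0.33 to 0.58. Both are named for these extremes, after their values were seen.

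Of the 5 members with an unadjusted p under 0.05, all 5 had the same sign in every one of the 16 other settings that measured them, the 3 single slides and the fit without the 2 livers of high acinar signal included. Eif5 was measured in 15 of them. The lowest adjusted p that any of these settings gave was 0.233 for Eef1b2, 0.353 for Eif4ebp3, 0.373 for Eif5, 0.484 for Eif3i and 0.576 for Eif2s3y. The 5 members were chosen by their p on these same arrays, so a kept sign was largely fixed in advance. It is no further support for the differences.

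**Figure D5:**
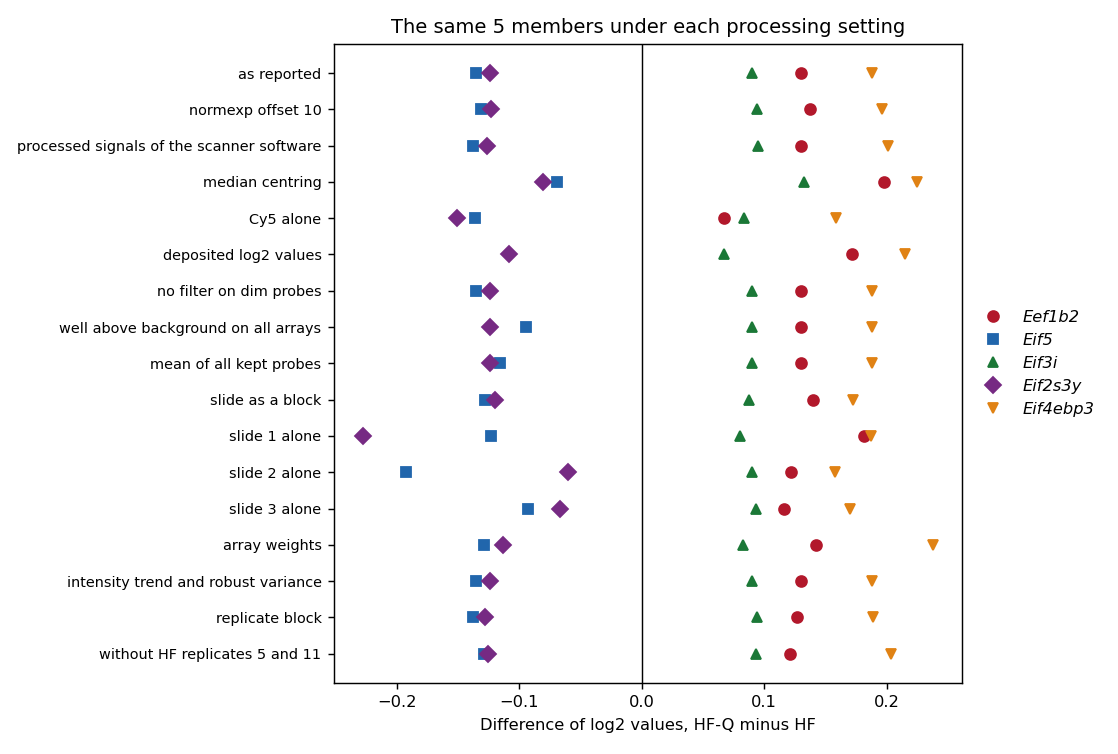
Difference of log2 values (HF-Q minus HF) of the same 5 members under each processing setting, 1 symbol per gene, with the reported fit at the top; Eif5 has no value in the deposited table's row because only probes with a value on all arrays were taken there. Each gene stays on its side of 0, with Eef1b2 between 0.068 and 0.20 and Eif5 between -0.19 and -0.069. The genes were chosen by their p on the same arrays, so this is no further support.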

How the data were processed

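The authors deposited scanner output for 21 arrays, with raw mean and background intensity columns per the file headers. It came from Agilent Feature Extraction 10.7.3.1, per the submitters' processing notes. Flags of 0 or 1 per spot come from the same deposited files. A second deposited file holds log2 values with a median of 7.92 in every column. It followed log2 Cy5 (r = 0.973 to 0.989) and not the log2 ratio (-0.037 to 0.039). Its normalization was not given in the sources used here. It served only as an alternative.

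Background was corrected with normexp (offset 50) and ratios normalized by loess within arrays (limma 3.58.1, R 4.3.3), with control and flagged spots left out. Probes well above background in Cy5 on at least 10 of 21 arrays were kept (26289 of 55681 probes). The difference HF-Q minus HF was tested over all genes with limma's moderated test, two-sided, with Benjamini-Hochberg adjustment and a threshold of 0.05; the script was tested on simulated data. Normexp with an offset draws ratios of dim genes toward 0. Each liver is 1 mouse.

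Members and lists were chosen with earlier results of these data known. Named were, per factor group, the 2 genes of lowest p and the one of largest difference, all members with an unadjusted p under 0.05, and Eif2s1, Eif2s3y, Eif4e, Eif4ebp1, Eef1a1 and Eef2; genes outside this rule are said to be so. Gene names are the array's, with RefSeq symbols (GRCm38.p6) beside them.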

Additional observations from a re-analysis of the deposited data

Results flagged for a closer look

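A search for single livers far from the other HF-Q livers covered the 59 members and the means of the factor groups with several genes, 70 searches in all; the HF group, with 11 livers, was too large for it. It found 5 values. Chance alone finds about 1 in 20 groups, so several of the 70 searches would find a value by chance. The searches were not separate either, because the group means are made of members searched singly, such as Eif4ebp2. All 5 values belonged to HF-Q replicate 10. Eif2s1 stood at 0.22 there, with the other HF-Q livers at -0.23 to -0.078, and Eif3c, named because of this search, at -0.28, with the others at -0.11 to 0.045. Eif4ebp2 stood at -0.50, with the others at -0.034 to 0.24. The mean of the eIF4E-binding proteins was -0.29 (others -0.027 to 0.19) and that of the Argonaute genes -0.32 (others -0.092 to 0.14). Over all genes this liver also had the largest median absolute deviation from a gene's median, 0.116, against 0.0627 to 0.0998 in the other 20 livers. The summed signal of 4 lymphocyte markers was also highest in HF-Q replicate 10, at 2602. It was 2449 in HF-Q replicate 9 and 2274 or less in all other livers. Whether the RNA, the array, the mouse or the mix of cells differed was not tested.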

How the results depend on the processing

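No translation factor gene passed the adjusted threshold in any of the 16 other settings or the 21 fits that left out 1 array, and the number called over all genes was 0 in most. It was 1 within slide 2 (Csad) and with array weights (Sult2a7), and 0 to 4 when 1 array was left out. The 4 came without HF replicate 2 (Cyp2b10, Fabp5 and the array names NAP111439-1 and NAP114472-1), and without HF-Q replicate 10 it was 1 (Sult2a7). Members with an unadjusted p under 0.05 numbered 5 as reported, 0 with median centring, 2 with Cy5 alone, 2 with the deposited log2 values, 0 within slide 2, 1 within slide 3, and 3 to 6 when 1 array was left out, 3 without HF replicate 1, HF-Q replicate 3 or HF-Q replicate 4. Beside these counts, the share over all genes is given only for the reported fit (5.93%). They therefore do not tell a change in the members from one in all genes.

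The median difference of the members was 0.050 with median centring, which moved the median of all genes to 0.024, and the medians of eIF3 and eIF4F were then 0.077 and 0.023. Within slide 1 the median of the Argonaute genes was -0.13. Within slide 2, which held 4 HF and 2 HF-Q livers, the medians were 0.12 (Argonaute genes), -0.0023 (eEF1), -0.051 (eIF1 family), 0.062 (eIF3) and -0.085 (hypusine factors). The causes of these shifts were not tested.

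For the 29 named genes, 47 of 461 values had the other sign from the reported one, 18 of them outside the single slides, all in genes whose reported p was above 0.05. With the scanner software's processed signals Eef2k was 0.0090. With median centring Eef2 was 0.045, Eif2d 0.027 and Eif4ebp2 0.027, and the median of all genes was 0.024. With Cy5 alone Eif4e was -0.019, Eif4ebp1 -0.0093 and Eif5a2 0.037. With the deposited values Eef2 was 0.012 and Eef2k 0.0011, with the slide as a block Eef2k was 0.0059, and with array weights Eif4ebp2 was 0.021 and Eif5a -0.0027. Without HF replicates 5 and 11, a setting chosen after seeing the data, Eef2 was 0.011, Eef2k 0.0034, Eif4e -0.0048 and Eif4ebp2 0.0010.

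Within slide 1 the turned values were Eif2d 0.0048, Eif3f -0.0071, Eif4ebp1 -0.096, Eif5a -0.0051, Eif5a2 0.025 and Eif5b 0.042. Within slide 2 they were Eef1a1 -0.0023, Eef2 0.10, Eef2k 0.11, Eif1a -0.023, Eif1b -0.051, Eif2c2 0.057, Eif2s1 -0.035, Eif2s3x 0.041, Eif4e -0.11, Eif4ebp2 0.23, Eif4g1 0.012, Eif4g3 0.10, Eif5a -0.029 and Eif5b 0.030. Within slide 3 they were Eef2 0.017, Eef2k 0.060, Eif1a -0.036, Eif2a -0.0019, Eif2b2 -0.065, Eif2c2 0.0021, Eif2s1 -0.0084, Eif4e -0.014 and Eif4ebp2 0.0013. When 1 array was left out, the sign turned for Eef2k (-0.033 to 0.034), Eif2b2 (-0.0070 to 0.020), Eif2d (-0.035 to 0.019), Eif2s1 (-0.0067 to 0.042), Eif4e (-0.014 to 0.029), Eif4ebp1 (-0.014 to 0.027) and Eif4ebp2 (-0.069 to 0.035).

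Both groups carry replicate numbers, which the labels do not tie to shared mice. Livers of the same number correlated at -0.34 to 0.16 over 10 numbers, 1 of them above 0.1, and 0 of 10 correlated best with their own number. With the replicate block 0 genes were called (lowest adjusted p = 0.529), 7 members had an unadjusted p under 0.05, Eif2b2 was -0.0037 and Eif4e -0.012. For that count too, the share over all genes is not given here. Scan time and slide were the same division, so no separate fit by scan date was made. Signal over background limits Eif5b most, whose pool channel was well above background on 1 array.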
